A study of Bos taurus with 12 samples.

Results

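The 7 genes described here, GATA4, GATA6, SOX17, PDGFRA, HNF4A, FOXA2 and RSPO3, mark the hypoblast or act in it. They were picked by symbol from the 32637 genes of the read count table, and all 7 were found and matched to the RefSeq annotation of ARS-UCD2.0. They were followed in 11 RNA-seq libraries of in vitro produced bovine expanded blastocysts, 6 female and 5 male. No treatment was given, and the groups differ by the sex of the embryos, typed by PCR on the other part of each embryo. A library is a pool of 2 cut embryos of 1 sex from the seventh or the eighth day, so a replicate is a pool rather than an embryo, and p-values measure the spread between pools. The question was whether hypoblast genes differ between the sexes and how they vary among pools.

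The hypoblast, or primitive endoderm, is the epithelium that separates from the epiblast within the inner cell mass and later lines the yolk sac. In mammals its precursors first express NANOG and GATA6 together and then resolve into epiblast cells with NANOG or hypoblast cells with GATA6. FGF signaling through MEK favours the hypoblast fate, PDGFRA follows GATA6, and SOX17, GATA4, HNF4A and FOXA2 are switched on later or in more mature endoderm. Part of each embryo was sequenced and the other part was used for PCR. The sampled parts hold trophectoderm, epiblast and hypoblast cells together, so a value is a share of the RNA of the pooled parts.

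Between 6664112 and 16162985 reads were counted on genes in female libraries, and between 9942952 and 21392764 in male libraries. Levels are given as CPM, a gene's count relative to its library's total after TMM scaling, and the limit set by 3 counts was 0.145 to 0.413 CPM in a library, which covers counting error only. Marker genes of both blastocyst lineages were counted in every library: the 10 trophectoderm markers summed to 7879 to 23154 CPM in females and 9195 to 36145 CPM in males, and the 6 inner cell mass markers in the table to 560 to 980 CPM in females and 792 to 1076 CPM in males. The 7 cumulus markers summed to 7.19 to 32.7 CPM in females and 5.38 to 29.5 CPM in males. Of these FSHR had 4.58 to 27.3 CPM in females and 4.80 to 18.1 CPM in males, and CYP19A1 too was counted in every library. FOXL2 was at 0 in 10 libraries, INHA in 9, AMH in 6, HAS2 in 3 and TNFAIP6 in 1. Male replicate 5 stood apart, with the highest trophectoderm sum, 36145 CPM, and the fewest genes with counts, 14937. Results that lean on it are given with and without it.

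The expanded blastocysts carried hypoblast transcripts in every pool, but not those of all members. GATA6 was counted 1511 to 3083 times per library and PDGFRA 369 to 4635 times. HNF4A and RSPO3 were counted 84 to 647 and 72 to 475 times. GATA4 and SOX17 were near the limit of detection, and FOXA2 was at 0 in 6 of the 11 libraries. Exon lengths were not at hand, so levels are not ranked between genes.

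**Figure D1:**
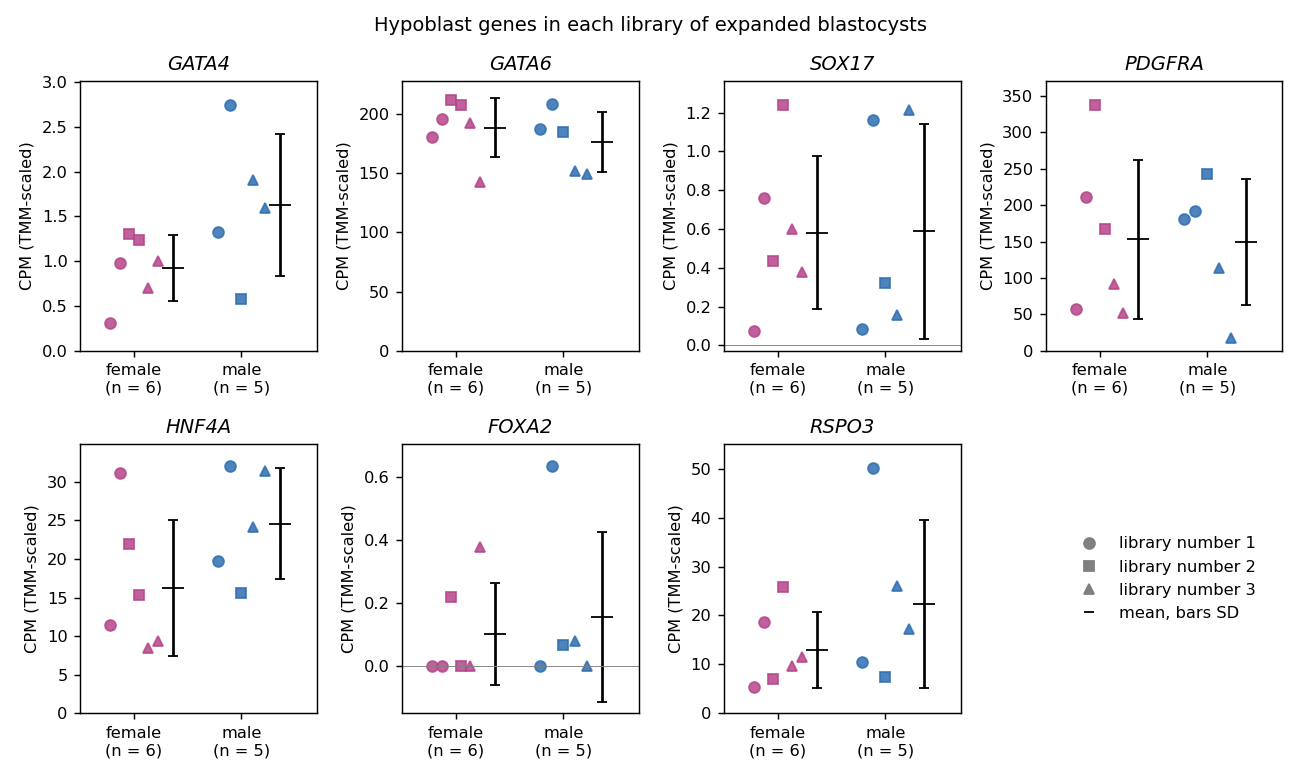
TMM-scaled CPM of the 7 hypoblast genes (vertical axis of each panel) in 6 female and 5 male pools; points are libraries, their shape gives the library number, and dashes with bars are the mean and SD. GATA6 lies between 143 and 212 CPM in every pool, PDGFRA spans 17.9 to 337 CPM, and FOXA2 is at 0 in 6 pools.

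None of the members was called sex-biased. The sexes were compared with edgeR's quasi-likelihood test, blocked by library number, which is the leading digit, 1 to 3, in a library's name. A call needed a change of more than 1.5 times and an FDR (Benjamini-Hochberg) below 0.1. Of the 12802 genes tested, 245 passed, which is 1.91%, and 5 members passed the filter on low counts, namely GATA4, GATA6, PDGFRA, HNF4A and RSPO3. Of these 5, 0 were called and 0 had an unadjusted p under 0.05, against 13.2% of all genes tested. DESeq2, which fitted all 7 members but gave FOXA2 no adjusted p, also called 0, against 4.17% of genes with the library number in the model and 5.49% with both numbers of the library name. An edgeR fit of every gene with at least 1 count called 0 of the 7, against 3.11% of genes. Its intervals had the width that a normal distribution gives, so a gene's own spread between pools had little weight in it. HNF4A and RSPO3 had unadjusted p-values of 0.0187 and 0.0189 in that fit and of 0.0261 and 0.0205 in DESeq2 with both numbers, so the count of 0 at an unadjusted p under 0.05 belongs to the main edgeR test. The log2 fold change, male over female, was above 0 in 4 of the 5 tested members, with a median of 0.67 against 0.01 over all genes tested. These are not separate results. GATA4, HNF4A and RSPO3 correlated with each other over the pools (Pearson's r 0.57 to 0.81), and PDGFRA fell below 0 in 6 of 20 alternative settings. The intervals below still allow differences well over the fold threshold for every tested member but GATA6.

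GATA6 (GATA binding protein 6, chromosome 24, 34161968 to 34194339) is the zinc finger factor that starts the hypoblast program, and in cattle embryos trophectoderm cells are also known to express it. The female pools had a lowest level of 143 CPM, a median of 194 CPM and a highest of 212 CPM. The male pools, replicates 1 to 5, had 187, 209, 185, 152 and 149 CPM. The sexes overlapped fully, and the highest library was 1.49 times the lowest. The mean was 189 ± 25.1 CPM in females (SD, n = 6) and 177 ± 25.1 CPM in males (SD, n = 5), a log2 fold change of -0.07 (SE 0.13, 95% interval -0.36 to 0.21, edgeR FDR = 0.862). That interval lies within a change of 1.5 times in both directions, and it is the narrowest of the members.

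GATA4 (chromosome 8, 7642415 to 7721284), a GATA factor that acts beside GATA6 in endoderm, was counted 4 to 33 times per library. Its lowest, median and highest levels in females were 0.30, 0.99 and 1.31 CPM. The males had 1.32, 2.75, 0.58, 1.91 and 1.60 CPM, and 4 of the 5 lay above every female, with male replicate 3 among the lowest. The means were 0.923 ± 0.371 CPM (SD, n = 6) and 1.63 ± 0.794 CPM (SD, n = 5), a log2 fold change of 0.83 (SE 0.60, 95% interval -0.47 to 2.12, edgeR FDR = 0.604). The test did not call this difference, which rests on few reads per pool. Within library numbers, the male minus female difference of log2 CPM was 1.52 in number 1, -0.96 in number 2, which holds only male replicate 3, and 0.93 in number 3.

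SOX17 (chromosome 14, 22229926 to 22231726), an SRY-box factor of endoderm, did not pass the filter. The female pools, replicates 1 to 6, held 1, 7, 6, 9, 6 and 6 counts. The male pools held 1, 11, 5, 2 and 25 counts, and over both sexes 8 of the 11 libraries were above 3 counts. Levels were 0.581 ± 0.395 CPM in females (SD, n = 6) and 0.587 ± 0.554 CPM in males (SD, n = 5). In a fit of every gene with at least 1 count the log2 fold change was 0.14 (SE 0.94, 95% interval -1.70 to 1.98, edgeR FDR = 0.982). That interval allows differences over the fold threshold of either sign.

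FOXA2 (chromosome 13, 41478502 to 41546053), a forkhead factor of definitive and visceral endoderm, was barely counted. The females held 3 counts in replicate 3, 6 in replicate 6 and 0 in the other pools. The males held 6 counts in replicate 2, 1 each in replicates 3 and 4, and 0 in replicates 1 and 5. Summed over pools this was 9 counts in females and 8 in males, or 0.130 CPM (95% exact Poisson interval 0.0594 to 0.247) and 0.114 CPM (0.0491 to 0.224), intervals that cover counting error only. Of its relatives, FOXA1 was above 3 counts in 1 library and FOXA3 in 5.

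HNF4A (chromosome 13, 72825641 to 72855373), a nuclear receptor of visceral endoderm, liver and gut, had the smallest p of the members. The female lowest, median and highest were 8.41, 13.3 and 31.2 CPM. The male pools had 19.8, 32.0, 15.6, 24.1 and 31.4 CPM. Of the 6 females, 4 lay below the lowest male, and the other two lay within the male range. The means were 16.3 ± 8.82 CPM (SD, n = 6) and 24.6 ± 7.17 CPM (SD, n = 5), a log2 fold change of 0.67 (SE 0.36, 95% interval -0.12 to 1.46, unadjusted p = 0.0898, edgeR FDR = 0.470). The difference was positive in library numbers 1 and 3 (0.41 and 1.62 on log2 CPM) and negative in number 2 (-0.23), and over all libraries it was 0.50 without male replicate 5.

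PDGFRA (chromosome 6, 69723776 to 69771549), the receptor tyrosine kinase for PDGF that supports the survival of hypoblast cells, varied far more between pools than between sexes. The females, replicates 1 to 6, had 58.0, 211, 337, 167, 91.8 and 52.1 CPM. The males had 181, 192, 243, 113 and 17.9 CPM. The highest library, female replicate 3, was 18.8 times the lowest, male replicate 5, and the counts behind these values ran from 369 to 4635. The means were nearly the same, 153 ± 110 CPM (SD, n = 6) and 149 ± 86.9 CPM (SD, n = 5), a log2 fold change of 0.11 (SE 0.44, 95% interval -0.85 to 1.07, edgeR FDR = 0.944). Without male replicate 5 the male mean was 182 CPM and the log2 fold change 0.39. In pools of mixed cells, fewer cells of a type and less RNA per cell cannot be told apart, here or in any result below.

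RSPO3 (chromosome 9, 24092390 to 24186517) encodes a secreted R-spondin, which strengthens WNT signals through LGR receptors. The lowest, median and highest females had 5.48, 10.6 and 25.7 CPM. The males had 10.4, 50.2, 7.47, 26.1 and 17.3 CPM. Male replicate 2 was above all other pools, and the remaining males lay within or just above the female range. The means were 13.0 ± 7.75 CPM (SD, n = 6) and 22.3 ± 17.2 CPM (SD, n = 5), a log2 fold change of 0.71 (SE 0.57, 95% interval -0.52 to 1.95, edgeR FDR = 0.646). Without male replicate 2 it was 0.12, and without male replicate 3 it was 1.18. By library number the difference of log2 CPM was 1.16, -0.83 and 0.997, the same signs as for GATA4 and HNF4A in numbers 1 to 3.

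**Figure D2:**
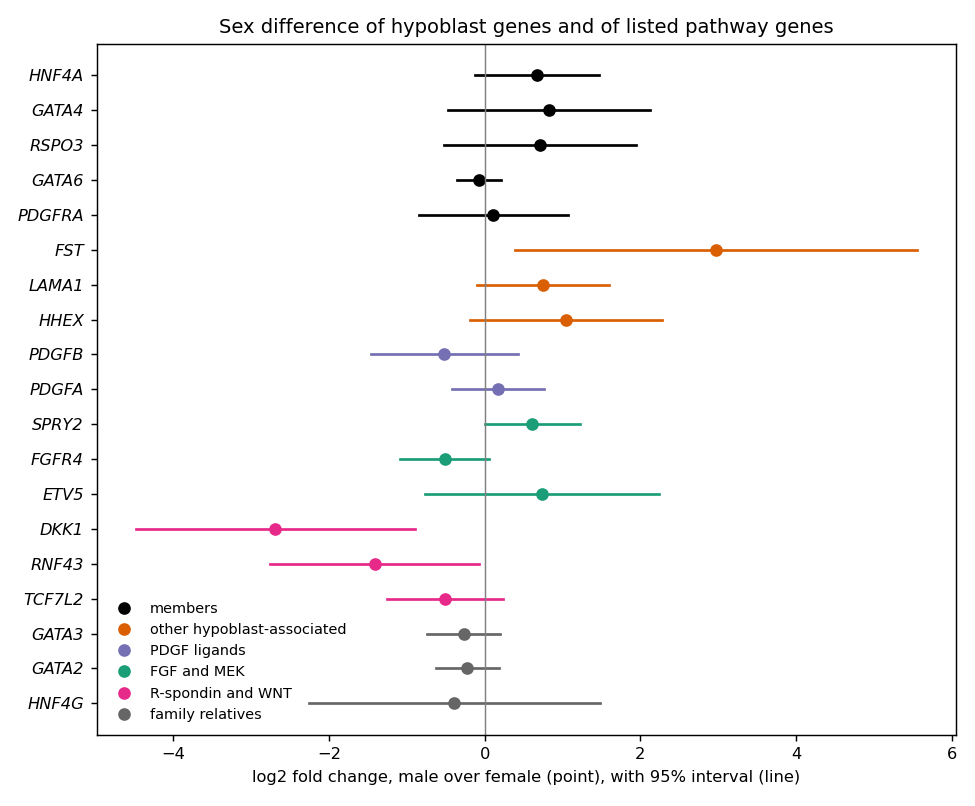
Log2 fold change, male over female (horizontal axis; points), with 95% intervals (lines), for the 5 tested members and up to 3 genes with the smallest p of each pathway list. The intervals of all 5 members cross 0, GATA6 has the narrowest (-0.36 to 0.21), and FST (2.97) and DKK1 (-2.69), not called in this edgeR test but called by DESeq2, lie farthest out.

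The members differed in how much they varied among pools of the same sex and library number. The biological coefficient of variation (BCV), the relative spread between replicates beyond counting error, was 0.403 over all genes. It was 0.182 for GATA6, lower than for all but 1.03% of genes tested, against a trend of 0.256 at its abundance (percentile of the ratio to the trend 7.90). It was 0.493 for PDGFRA, against a trend of 0.260 at its abundance, a ratio to the trend higher than that of 98.6% of genes. RSPO3 had 0.584 against 0.358 (percentile 97.0) and HNF4A 0.406 against 0.346 (percentile 84.0), while GATA4, at 0.568 against 0.671 (percentile 40.6), was below its trend. GATA6 was thus below and PDGFRA well above the spread usual at their abundance, a description and not a tested difference.

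**Figure D3:**
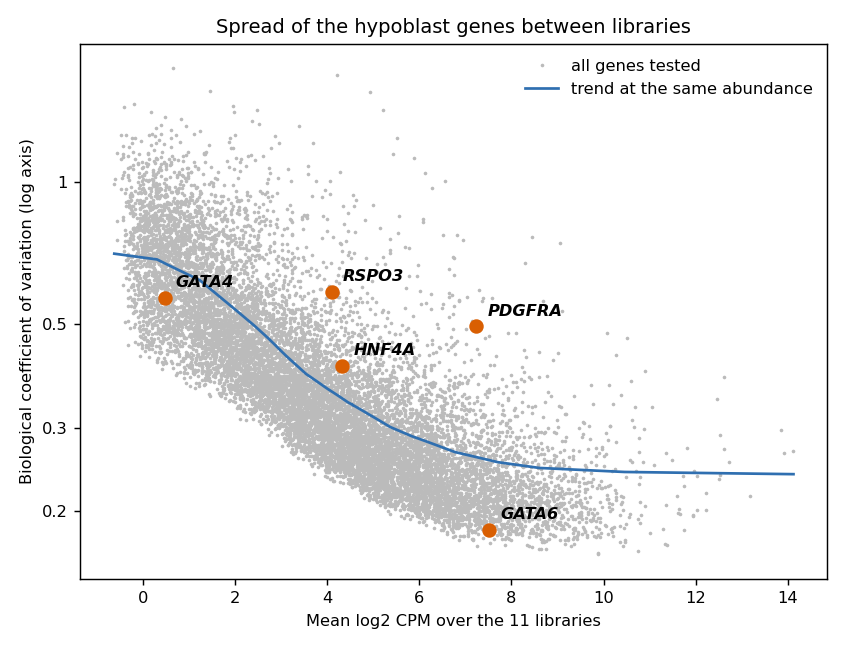
Biological coefficient of variation (vertical, log axis) against mean log2 CPM (horizontal) for the 12802 genes tested (grey), with the trend (line) and the 5 tested members (orange). PDGFRA (0.493) and RSPO3 (0.584) sit well above the trend and GATA6 (0.182) near the lower edge of the cloud.

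PDGFRA also had unequal means by library number, which the test did not call. The mean was 161 ± 69.4 CPM (SD, n = 4) in number 1, 249 ± 84.9 CPM (SD, n = 3) in number 2 and 68.7 ± 42.2 CPM (SD, n = 4) in number 3. All 3 pools of number 2 lay above all 4 pools of number 3. The F test between library numbers gave PDGFRA an unadjusted p of 0.0164 and an edgeR FDR of 0.693. Of the 5 tested members, 0 were called in that test, in which 0.00781% of all genes were called, and 1 (PDGFRA) had an unadjusted p under 0.05, against 6.93% of all genes. In the fit of every gene with at least 1 count PDGFRA was called (edgeR FDR = 1.96e-10), as were 2.76% of all genes in that fit. That fit gave little weight to a gene's own spread between pools. There the SE of the PDGFRA sex difference was 0.197, against 0.441 in the main test. What the library number stands for is not given in the labels.

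Across the 11 libraries the highest correlations among the tested members were those of GATA6 with PDGFRA and of GATA4 with RSPO3 and HNF4A. Correlations of log2 CPM are given as descriptions without a p. The points are few and share a kit, an amplification and their library numbers, and 21 pairs of members were computed. GATA6 and PDGFRA had Pearson's r = 0.76 and Spearman's rho = 0.75, a correlation that 1.27% of genes reached or exceeded with GATA6. Without the 2 pools farthest from the median r was 0.51, and with sex and library number removed it was 0.48. GATA4 and RSPO3 had r = 0.81 and rho = 0.70 (0.58 without the 2 farthest pools, 0.79 with sex and library number removed), which 0.187% of genes reached with GATA4. GATA4 and HNF4A had r = 0.68 and rho = 0.71, and HNF4A and RSPO3 had r = 0.57 and rho = 0.55.

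Several of the other pairs had r near 0 over all pools, and some of these values lean on male replicate 5. GATA4 and GATA6 had r = -0.01 and PDGFRA and RSPO3 0.03, against 0.10 and 0.16 without that library. GATA4 and PDGFRA went from 0.10 to 0.39 without it, and GATA6 and HNF4A from 0.13 to 0.36. PDGFRA and HNF4A went from 0.16 to 0.69, and had 0.59 without the 2 farthest pools. Over the 6 females alone PDGFRA and HNF4A had r = 0.82, GATA4 and PDGFRA 0.66 and GATA6 and HNF4A 0.55, while GATA4 and HNF4A had 0.43 and HNF4A and RSPO3 0.32. SOX17, with few counts, had r = 0.59 with RSPO3 and 0.23 with GATA6.

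**Figure D4:**
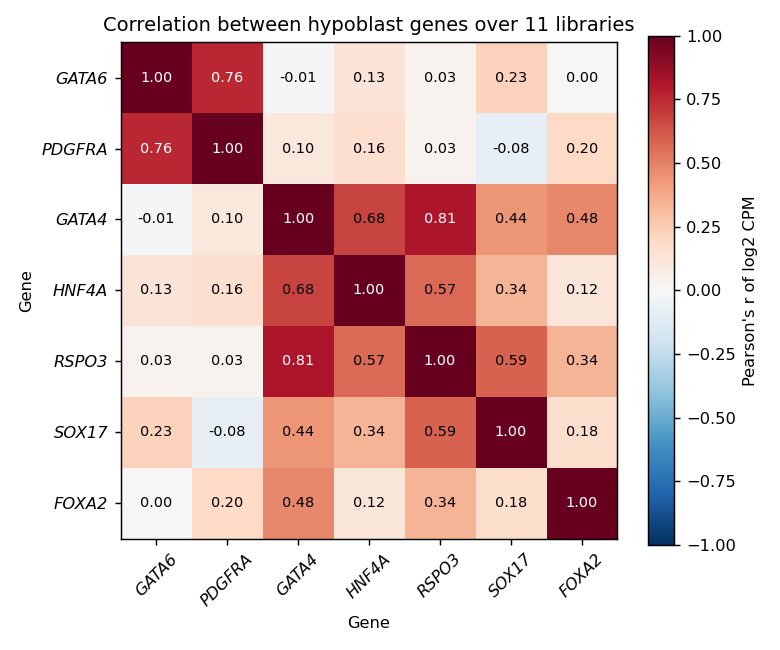
Pearson's r of log2 CPM over 11 libraries between each pair of the 7 hypoblast genes (rows and columns; colour scale from -1 to 1). GATA6 with PDGFRA (0.76) and GATA4 with RSPO3 (0.81) and HNF4A (0.68) are the highest values; SOX17 and FOXA2 rest on few counts.

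PDGFRA was high in pools where trophectoderm markers were low. Its r with the summed level of the 10 trophectoderm markers was -0.90 (rho -0.87, n = 11), and -0.82 without male replicate 5. This sum was set against PDGFRA after its values were seen. Markers with high CPM weigh most in it, such as KRT8 (2285 to 20143 CPM) and LGALS3 (2945 to 9391 CPM). All 10 markers had a negative r with PDGFRA, from -0.92 to -0.19, and the lowest was that of KRT18, a keratin of simple epithelia. Among the transcription factors r was -0.92 for CDX2, -0.60 for TFAP2A, -0.59 for GATA3, -0.55 for GATA2 and -0.19 for TFAP2C. Female replicate 3, highest in PDGFRA, had 686 CPM of KRT18, the lowest of all pools, and male replicate 5, lowest in PDGFRA, had 3836 CPM, the highest. The sum of the inner cell mass markers had r = 0.40 with PDGFRA, and 0.75 without male replicate 5. For GATA6 the trophectoderm sum gave r = -0.61, and -0.46 without male replicate 5, with 8 of 10 markers negative. For GATA4, HNF4A and RSPO3 it gave 0.10, 0.05 and 0.26, and -0.05, -0.28 and 0.25 without male replicate 5, with 7, 7 and 5 of the 10 markers negative over all pools. The part of the mix of cell types in these values was not tested.

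Of the listed genes, OTX2, a homeobox factor of epiblast and visceral endoderm, was among those that ran close to PDGFRA. OTX2 had r = 0.889 and rho = 0.88 (0.84 without the 2 farthest pools, 0.89 without male replicate 5), and 0.953% of genes reached this r with PDGFRA. From the R-spondin and WNT list, LRP6 (r = 0.892) and ZNRF3 (r = 0.887) were as close over all pools, but leaned more on the extreme ones. Without the 2 farthest pools LRP6 had r = 0.74 and ZNRF3 0.62, and without male replicate 5 they had 0.80 and 0.74. The levels of OTX2 were 63.4, 154, 144, 102, 63.8 and 57.5 CPM in females and 126, 96.3, 113, 111 and 52.3 CPM in males. OTX2 was named for its correlation, after the values were seen. RSPO3 had r = 0.70 and rho = 0.72 with NANOG, the epiblast factor. NANOG ranged from 9.31 CPM in female replicate 5 to 292 CPM in male replicate 2, the pool that was also highest in RSPO3. NANOG too was named after its values were seen.

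KIT, a receptor tyrosine kinase of the same family, is the next protein-coding gene after PDGFRA on chromosome 6, at 70166692 to 70254049. Its levels in females were 71.3, 83.3, 233, 69.6, 121 and 39.5 CPM, and in males 135, 101, 119, 118 and 11.1 CPM. The highest and the lowest pool were those of PDGFRA. The correlation was r = 0.88 and rho = 0.67, 0.54 without the 2 farthest pools and 0.71 without male replicate 5, and 1.26% of genes reached it with PDGFRA. KIT was not called between the sexes (log2 fold change 0.03, SE 0.53, edgeR FDR = 0.991).

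**Figure D5:**
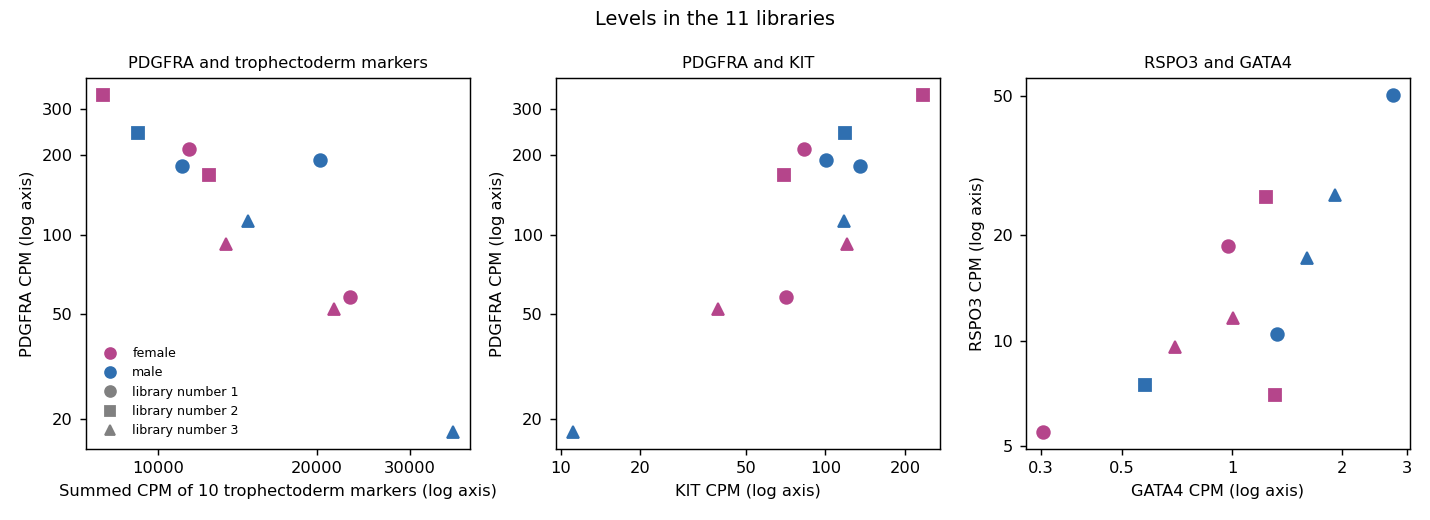
CPM of each of the 11 libraries on log axes: PDGFRA against the summed trophectoderm markers (left), PDGFRA against KIT (middle) and RSPO3 against GATA4 (right); colour gives the sex and shape the library number. PDGFRA runs down with the trophectoderm sum (r = -0.90) and up with KIT (r = 0.88), and male replicate 5 is the end point of both.

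The genes whose levels over the 11 libraries were most like each member were found among all genes tested. For GATA4 these were GPX1, a glutathione peroxidase (r = 0.94), PAFAH1B3 (0.91) and PIP4K2B (0.89). For GATA6 they were LOC100848941 (0.91), KDM2B, a histone demethylase (0.91), and ARID1A, a chromatin remodelling subunit (0.91). For PDGFRA they were AKAP12, a kinase anchoring protein (0.97), LOC100848315 (0.96) and TARBP1 (0.96). For HNF4A they were TMEM138 (0.93), EXT1, an enzyme of heparan sulfate synthesis (0.91), and IQCF3 (0.88). For RSPO3 they were SLC44A5 (0.94), CISD2 (0.91) and PYY2 (0.90). PDGFRA had 84 genes at r of 0.9 or more, or 0.656% of those tested, and GATA6 had 4. GATA4, HNF4A and RSPO3 had 2 each. With 12802 genes and 11 points some high correlations are found for most genes.

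Other genes associated with the hypoblast were present in part. Of 22 listed, 15 were tested, 0 were called by edgeR and 1 had an unadjusted p under 0.05. Among those not tested, FOXA1 and EOMES were above 3 counts in 1 library each, SOX7 in 2, CUBN in 3 and GATA5 in 8. Among basement membrane genes that hypoblast cells secrete, female means were 29.3 CPM for COL4A1, 82.2 CPM for LAMB1 and 246 CPM for SPARC, with male means of 23.6, 67.0 and 201 CPM. COL4A2 had means of 4.21 CPM in females and 4.33 CPM in males. The serum protein genes TTR and AFP, of the later yolk sac and liver, were at 0 in all 11 libraries, which allows up to the limit of 3 counts in each. FST, the activin antagonist follistatin, had a log2 fold change of 2.97 (SE 1.19, edgeR FDR = 0.301). It was called by DESeq2 with the library number (FDR = 0.0254) and with both numbers (FDR = 0.0502). The edgeR fit of every gene with at least 1 count, which gave little weight to spread between pools, also called FST (FDR = 3.32e-04). Male replicate 2 had 23.0 CPM of FST and the other pools 0.063 to 2.23 CPM. LAMA1, a laminin chain (0.75, FDR = 0.443), and HHEX, a homeobox factor of anterior endoderm (1.04, FDR = 0.470), had the next smallest p.

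Of the PDGF ligands, PDGFA and PDGFB were above 3 counts in all 11 libraries, PDGFC in 3 and PDGFD in 2. Of the 6 listed PDGF genes 2 were tested, PDGFA and PDGFB, and 0 were called. PDGFA had 15.1 ± 7.37 CPM in females (SD, n = 6) and 18.2 ± 8.79 CPM in males (SD, n = 5), with 31.8 CPM in male replicate 5, the pool lowest in the receptor PDGFRA. PDGFB had 4.53 ± 2.26 CPM (SD, n = 6) and 3.01 ± 1.06 CPM (SD, n = 5). Their log2 fold changes were 0.17 (edgeR FDR = 0.844) and -0.52 (FDR = 0.666). The sister receptor PDGFRB was above 3 counts in 3 libraries only.

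For FGF and MEK signaling, 14 of 17 genes were tested, 0 were called and 1 had an unadjusted p under 0.05. FGF4, the ligand that epiblast cells send to hypoblast precursors in the mouse, was never above 3 counts. The receptors were all counted, with female means of 2.98 CPM for FGFR1, 6.74 for FGFR2, 17.8 for FGFR3 and 19.0 for FGFR4. The smallest p belonged to SPRY2, a feedback inhibitor (log2 fold change 0.62, edgeR FDR = 0.378), FGFR4 (-0.51, FDR = 0.439) and ETV5, an ETS factor induced by FGF (0.74, FDR = 0.702).

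For R-spondin and WNT signaling, 11 of 18 genes were tested, 0 were called by edgeR and 2 had an unadjusted p under 0.05. Of the R-spondin receptors, LGR4 had 22.2 ± 4.02 CPM in females (SD, n = 6) and 21.4 ± 7.67 CPM in males (SD, n = 5). LGR5 was above 3 counts in 5 libraries and LGR6 in 0. The other R-spondins, RSPO1, RSPO2 and RSPO4, were above 3 counts in 2, 2 and 1 libraries. DKK1, a secreted WNT inhibitor, was counted in every female, at 1.26 to 6.61 CPM. In males it had 0.662, 0.106, 3.99, 0 and 0 CPM, so male replicate 3 lay within the female range and the other males below it. Its log2 fold change was -2.69 (SE 0.82, unadjusted p = 0.00677, edgeR FDR = 0.173), a size that depends on how libraries with 0 counts are treated. It was called by DESeq2 with the library number (FDR = 0.00703) and with both numbers (FDR = 0.00137). The edgeR fit of every gene with at least 1 count, which gave little weight to spread between pools, also called DKK1 (FDR = 0.00124). RNF43, a ligase that R-spondins inhibit (-1.41, FDR = 0.351), and TCF7L2, a WNT effector (-0.51, FDR = 0.570), followed.

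The family relatives were partly those of the trophectoderm. GATA2 and GATA3, which act in trophectoderm, had 49.8 ± 9.90 and 147 ± 39.4 CPM in females (SD, n = 6) and 43.5 ± 6.86 and 125 ± 34.8 CPM in males (SD, n = 5). GATA5 was above 3 counts in 8 libraries and GATA1 was at 0 in all. SOX7 was above 3 counts in 2 libraries, while SOX18, an endothelial factor, was tested and had 2.08 ± 0.651 CPM in females (SD, n = 6) and 2.21 ± 2.33 CPM in males (SD, n = 5). HNF4G had 2.51 ± 1.57 and 1.81 ± 1.12 CPM. Of the 14 relatives 5 were tested and 0 called, and GATA3 (log2 fold change -0.27, edgeR FDR = 0.656), GATA2 (-0.22, FDR = 0.669) and HNF4G (-0.39, FDR = 0.894) had the smallest p.

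The marker lists of neighbouring cells held no call in the main edgeR test, but some under other settings. Of the 7 inner cell mass markers, 6 were tested (TDGF1 was not analysed here), 0 were called and all 6 had log2 fold changes above 0, with a median of 0.18. NANOG was called in the edgeR fit of every gene with at least 1 count (log2 fold change 0.84, FDR = 0.00663), against an edgeR FDR of 0.655 in the main test. That fit gave little weight to a gene's own spread between pools, which applies to PTGS2 below as well. Of the 10 trophectoderm markers all were tested, 0 were called and 5 were above 0, with a median of -0.06. PTGS2, a prostaglandin synthase, had the smallest p there (-1.20, edgeR FDR = 0.166). It was called by DESeq2 (FDR = 0.0216 with the library number and 0.0149 with both numbers), in the edgeR fit of every gene with at least 1 count (FDR = 2.10e-08) and without female replicate 2 (FDR = 0.0482). Of the 7 cumulus markers 3 were tested and 0 called, and CYP19A1, the aromatase, had a log2 fold change of -1.67 (edgeR FDR = 0.241) and was called by DESeq2 with both numbers (FDR = 0.0514).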

How the data were processed

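RNA-seq was done on 6 female and 5 male pools of expanded blastocysts (SMART-Seq HT PLUS kit). A further Iso-seq sample of 4-cell embryos was not used here. Per the labels and methods, the authors used fastp 0.20.0 for trimming, STAR 2.7.10b for alignment to ARS-UCD2.0 and featureCounts for counting, and deposited raw counts per gene. Whether strand was used is not given in the sources used here.

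Counts were filtered with filterByExpr, scaled with TMM and tested with edgeR 4.0.16 (glmQLFit, glmQLFTest; R 4.3.3). The study used the collection week as a covariate. The labels give no week, and the library number stood in for it. DESeq2 1.42.0 was an alternative. SE was the log2 fold change over the root of F, and the prior count in log2 CPM was 2. Coordinates are RefSeq gene spans, and 30271 of 32637 symbols matched. Replicates correlated at 0.861 to 0.963, and none was a copy. Scripts were tested on simulated counts. The members and lists were chosen with earlier results of these data known. All members, the 3 genes with the smallest p of each pathway list and the 3 genes most like each tested member were named. Other genes named by level or correlation, such as KRT18, LGR4, PDGFA and OTX2, were chosen after their values were seen.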

Additional observations from a re-analysis of the deposited data

Results flagged for a closer look

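FOXA2 in male replicate 2, at 0.634 CPM, lay far from the other males, of which the next had 0.0795 CPM. The gap was 0.875 of the range, above the limit of 0.71 for 5 samples. The value rests on 6 counts. Of the 14 groups (7 genes in each sex) 1 was flagged in this way. Chance flags about 1 in 20 groups of normally distributed values. Values from so few counts are not of that kind, so this rate may not hold here.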

How the results depend on the processing

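The number of members called sex-biased was 0 in all 20 alternatives. One of them, an FDR under 0.05, is the main fit with a stricter cut, so its calls and fold changes could not add to those of the main test. GATA4, HNF4A and RSPO3 stayed above 0 in log2 fold change in each of them. Leaving out 1 library gave 0.49 to 1.34 for GATA4, 0.47 to 1.02 for HNF4A and 0.12 to 1.18 for RSPO3. GATA6 ran from -0.14 to 0.0048, above 0 only without female replicate 5. PDGFRA, at 0.11, was -0.032 with no replicate block, -0.38 with the title number as replicate block, -0.028 with both library numbers as replicate block and -0.022 in DESeq2 with both, and ran from -0.28 (without male replicate 4) to 0.39. It was also below 0 without female replicate 1, at -0.13. SOX17 was -0.0068 in DESeq2 with both library numbers. In the fit of every gene with at least 1 count, 1 member (PDGFRA, FDR = 1.96e-10) was called between library numbers, with 658 of 23857 genes called in all. That fit gave little weight to a gene's own spread between pools. An unadjusted p for sex under 0.05 was also found for RSPO3 with the title number as replicate block (0.0360), for HNF4A without female replicate 2 (0.0141), and for HNF4A (0.0318) and GATA4 (0.0459) without male replicate 3. The cause was not tested.

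Genes called sex-biased numbered 245, against 326 with no replicate block, 132 with the title number as replicate block, 297 with both library numbers as replicate block, 655 and 837 in DESeq2 with the library number and with both numbers, 743 with every gene with at least 1 count and 125 at an FDR under 0.05. Leaving out 1 library gave 95 (without male replicate 3) to 364 (without male replicate 5). Same-numbered pools did not all deviate together, with correlations of -0.11 to 0.35 for title numbers and 0.01 to 0.37 for library numbers. The numbers were thus not taken as evidence that single pools are paired. The library number was still a block in the main test, in place of the collection week, and these correlations give that choice little backing. Counts were lowest for GATA4 (4 to 33 per library), SOX17 (1 to 25) and FOXA2 (0 to 6).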
